A study of Mus musculus with 8 samples.

Results

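The genes described here encode the proteins of the cytosolic ribosome. They were found by symbol in the annotation of the array, as every gene named Rpl or Rps with a number and at most 1 further letter, together with Rplp0, Rplp1, Rplp2 and Rpsa. The rule leaves out the Rps6k kinases and gave 60 of the 16593 genes on the array: 34 of the large subunit, 3 of the stalk and 23 of the small subunit. It uses names only and no measured value. They are covered by 77 probes, and the probe with the highest mean over the arrays stands for each of the 14 genes that have several.

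The samples are L929 cells, a mouse fibroblast line, without ectopic IRF8, and L929 cells with ectopic IRF8 (L929IRF8), a transcription factor of immune cells. Each line was unstimulated or received interferon beta (IFNβ) at 1000 U/ml for 4 h, with 2 replicates in each of the 4 groups, so 8 bead arrays in all. The sources used here do not give the route by which IRF8 was introduced, nor whether L929IRF8 is 1 clone or L929 a vector control. The comparisons ask how each line responds to IFNβ, how the lines differ before and after it, and whether their responses differ (the interaction).

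The cytosolic ribosome reads messenger RNA on its small subunit and forms peptide bonds on its large subunit, and the acidic stalk of the large subunit calls in the elongation factors. Its proteins are made in balanced amounts, and their messenger RNAs are among the most abundant of a growing cell. Most of these messenger RNAs begin with a C followed by a run of pyrimidines, the terminal oligopyrimidine (TOP) tract, through which growth signals set their translation. Type I interferon acts on translation in part through the induced kinase PKR, which acts on initiation.

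The sequence around the start site is shown first, since the pyrimidine tract described above begins there. RefSeq (GRCm38.p6) start-site windows of 300 bases, 250 before and 50 after the annotated start, were found for 51 of the 60 genes, 62 windows in all. The lines below give 25 bases before and 15 from the start onwards for 6 genes with a C at the annotated start and a pyrimidine run across it, and then for Rps24 and Rpl22, whose values are described further on. The longest pyrimidine run of each stretch is in capitals.
Rps6 (chr4:86857353-86857392, minus strand): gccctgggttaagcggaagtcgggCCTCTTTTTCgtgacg
Rpl28 (chr7:4792940-4792979, plus strand): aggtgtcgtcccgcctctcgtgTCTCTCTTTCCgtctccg
Rpl35 (chr2:39005117-39005156, minus strand): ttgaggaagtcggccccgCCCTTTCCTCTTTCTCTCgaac
Rpl38 (chr11:114668555-114668594, plus strand): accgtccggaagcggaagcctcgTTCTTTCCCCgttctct
Rps10 (chr17:27635230-27635269, minus strand): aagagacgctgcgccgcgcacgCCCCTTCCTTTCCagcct
Rps27 (chr3:90213634-90213673, minus strand): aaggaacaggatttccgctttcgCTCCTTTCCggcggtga
Rps24 (chr14:24490653-24490692, plus strand): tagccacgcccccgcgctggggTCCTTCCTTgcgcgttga
Rpl22 (chr4:152325701-152325740, plus strand): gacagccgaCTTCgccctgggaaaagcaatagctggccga

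A C at the annotated start followed by at least 4 pyrimidines stood in 11 of the 62 windows (17.7%), against 2.51% of all 32851 windows. A run of at least 8 pyrimidines within 25 bases of the start stood in 27 (43.5%), against 19.7% of all windows. The short words of the tract were searched on the gene's strand: CTCTTTC lay near the start in 9.68% of the ribosomal protein windows and 0.682% of all, and CTTTCC in 14.5% and 2.46%. On both strands of the whole window, CCGGAAG, the core word of ETS factors, was found in 35.5% against 8.86%, GGGCGG, the GC box, in 59.7% against 35.7%, and TCTCGCGA in 12.9% against 0.995%. TATAAA was less frequent, at 8.06% against 13.6%. Annotated starts can be some bases off the true start, so these shares describe the annotation.

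**Figure D1:**
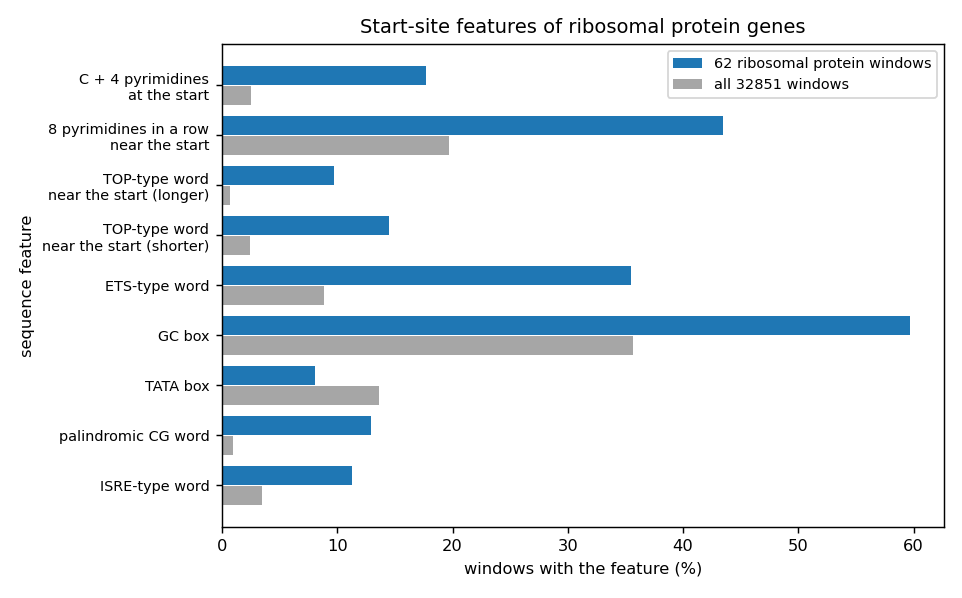
Share of start-site windows (%) that hold each of 9 sequence features, for the 62 windows of ribosomal protein genes (blue) and for all 32851 RefSeq windows (grey). The blue bar is longer for 8 features, such as 43.5% against 19.7% for a run of 8 pyrimidines near the start, and shorter for the TATA box (8.06% against 13.6%).

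The interferon-stimulated response element, the site through which ISGF3 and IRF proteins act, was searched on both strands as GAAA, any 2 bases and GAAA again. It occurred in 7 of the 62 windows (11.3%), against 3.44% of all windows, with 1 match in each of 7 genes. The matches are shown with 10 bases on either side, read on the gene's strand, with the word in capitals. Where the capitals read TTTC first, the word lies on the opposite strand, and in Rpl27a and Rpl4 it then overlaps a pyrimidine run near the start.
Rps19 (chr7:24884407-24884436, plus strand): cacgcccaagGAAACGGAAAgaggaaccag
Rpl38 (chr11:114668469-114668498, plus strand): cagggctgctGAAATTGAAAtgatgaacgc
Rps23 (chr13:90922951-90922980, plus strand): tcatttgcctGAAAAGGAAAtaacagcgta
Rpl5 (chr5:107900390-107900419, plus strand): aaagcctctaTTTCCCTTTCtcatcgccca
Rps7 (chr12:28636148-28636177, minus strand): agctgctttcTTTCTTTTTCctagggccgt
Rpl4 (chr9:64173361-64173390, plus strand): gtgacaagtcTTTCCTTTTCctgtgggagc
Rpl27a (chr7:109519190-109519219, plus strand): gctcctccctTTTCCCTTTCtgccaccgcc

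The deposited values are background-subtracted, quantile normalized intensities. A gene counts here as above background where its mean exceeds 23.7 intensity units, the size of the lowest deposited value. That held for 53 of the 60 ribosomal protein genes, each of them on all 8 arrays, and for 46.4% of all genes. The probes of 36 ribosomal protein genes had means over 10000, where 133 genes of the array lie in all, and on 3 arrays the brightest probe of all was that of a ribosomal protein gene. Of the 424 values above background, 272 are shared exactly with another gene or array, as quantile normalization gives every array nearly the same sorted values. The scanner's ceiling is not known here, and differences between very bright values can be understated. Changes are relative to the other genes of an array: fewer cells, less RNA per cell or a loss shared by all messenger RNAs cannot be told apart.

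The probes of the other 7 genes read at background. They are Rpl14, Rpl17, Rpl6, Rps23, Rplp2, Rpsa and Rpl3l. Rpl3l, a relative of Rpl3 found in striated muscle, ranged from -0.2 to 22.1 units. Rplp2, which pairs with Rplp1 in the stalk, ranged from -0.3 to 15.8, and Rpsa, a small-subunit protein also known as a laminin receptor, exceeded the bound on 1 array (28.5). These 7 probes give no level and no fold, and they say nothing on whether the messenger RNA is there.

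The labels were checked on other genes. Isg15, a ubiquitin-like protein induced by interferon, changed with IFNβ by 7.56 ± 0.19 in L929 and 7.10 ± 0.19 in L929IRF8 (log2, SE), and 6 of 7 interferon control genes passed in each line. The Irf8 probe read -2.3 to 7.8 units on all 8 arrays and does not show the ectopic gene, and whether it lies inside the introduced sequence is not known. Of 9 fibroblast markers, 8 exceeded the bound on all arrays, with summed intensities of 45168 to 50633. Of 8 myeloid markers on the array Cd14 alone did so, of 7 lymphoid markers 0 and of 6 epithelial or endothelial markers 0. Their summed intensities ran from 108 to 195, 11.8 to 39.3 and 64 to 95.5 over the arrays, the last list from 64 to 71 in untreated L929 and from 92 to 96 after IFNβ. The myeloid marker Adgre1 passed as higher after IFNβ in L929 (adjusted p = 0.011) at values from -5.4 to 8.9, all at background. The part of these markers in the values below was not tested.

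After IFNβ, no ribosomal protein gene passed the test in either line. In limma's moderated test with Benjamini-Hochberg adjustment over all 25697 probes (threshold 0.05), 0 of 60 rose and 0 fell in L929, where 0.996% of all probes were called higher and 0.28% lower. In L929IRF8 the count was 0 and 0 as well, against 0.864% and 0.21% of all probes. At an unadjusted p under 0.05 there were 4 such genes in L929 (Rps24, Rps20, Rpl9 and Rps16) and 0 in L929IRF8, which is 6.67% and 0% of the 60, where 10.8% and 10.5% of all genes had one. The smallest adjusted p over the 60 genes was 0.225 in L929 and 0.651 in L929IRF8.

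The changes themselves were small. Over the 60 genes the median log2 change was -0.03 in L929 and -0.04 in L929IRF8, beside -0.01 in each line over all genes. For the 53 genes above background the medians were -0.02 and -0.03, beside -0.08 in each line over the 7693 genes above background. Of these 53 genes, 94.3% in L929 and 98.1% in L929IRF8 changed by less than 0.25 on the log2 scale, where 67.5% and 66% of all genes above background did. The 95% intervals lay within a 2-fold change either way for 52 of the 53 genes in each line (98.1%), and within 1.5-fold for 46 and 47. Of all 7693 genes above background, 77.7% and 76.7% had intervals within 2-fold, and 3174 and 3181 within 1.5-fold. The exception at 2-fold among the 53 genes was Rpl22 in both lines. Its intervals ran from -1.54 to 0.54 in L929 and from -1.33 to 0.75 in L929IRF8. Single arrays set the sign and size of the medians over the 60 genes. Leaving out IFNβ replicate 1 of L929 turned the median in that line to 0.02, and leaving out replicate 2 took it to -0.09. For L929IRF8 the same removals from its own IFNβ group gave 0.02 and -0.09, and the median was -0.06 or -0.02 without its untreated replicate 1 or 2. In L929 it was -0.04 without the untreated replicate 2.

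**Figure D2:**
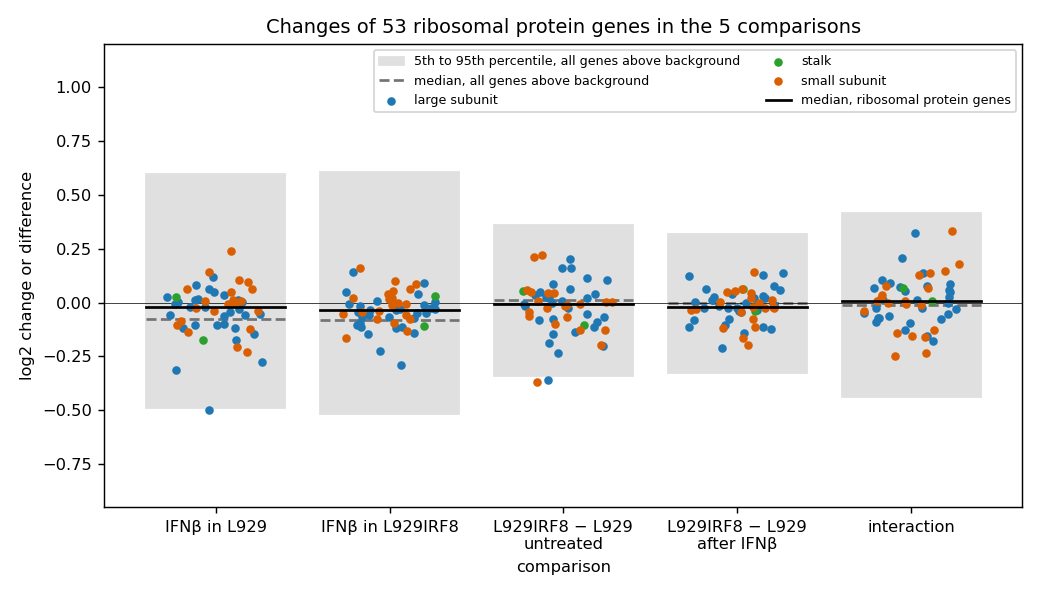
Log2 change or difference of the 53 ribosomal protein genes above background in the 5 comparisons, with each gene as a dot coloured by subunit and black lines at their medians. Grey boxes span the 5th to 95th percentile of all 7693 genes above background, with dashed medians. The dots lie mostly inside the boxes. At the deposited scaling the IFNβ medians of the ribosomal protein genes (-0.02 and -0.03) lie nearer 0 than those of all genes (-0.08 in each line).

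Counted by array, the IFNβ values of 4 of the 53 genes lay wholly above the untreated values in L929 and those of 12 wholly below (7.55% and 22.6%), where 13.9% and 29% of all genes above background did so. In L929IRF8 3 lay wholly above and 3 wholly below (5.66% each), against 12.4% and 26.7%. By subunit, the median change of the 30 large-subunit genes above background was -0.04 in L929 and -0.05 in L929IRF8, and that of the 21 small-subunit genes -0.003 and -0.01. The share of each array's summed positive intensity held by the 53 genes was 6.94% and 6.89% on the untreated L929 arrays, 6.67% and 6.96% after IFNβ, 6.73% and 6.89% on the untreated L929IRF8 arrays and 6.59% and 6.97% after IFNβ. The ranges of the 4 groups overlap or touch, and the lowest share in each line is that of IFNβ replicate 1.

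Among small-subunit genes, Rps24, which is needed to process the precursor of the small subunit's RNA, had the smallest p in L929. It read 28298 and 29888 in untreated L929, 24703 and 24838 in L929 after IFNβ, 22085.5 and 23002 in untreated L929IRF8, and 25147 and 23221 in L929IRF8 after IFNβ. The untreated L929 arrays were the highest of all 8, and the untreated L929IRF8 arrays the lowest. The log2 change with IFNβ was -0.23 ± 0.05 in L929 (SE, limma adjusted p = 0.225) and 0.10 ± 0.05 in L929IRF8 (adjusted p = 0.735). A dimmer second probe of Rps24 read 520.9 and 704.2 in untreated L929, 497 and 642.7 after IFNβ, 461.1 and 663 in untreated L929IRF8, and 348.7 and 626.5 after IFNβ. Its groups all overlap, and its change was -0.10 in L929 and -0.23 in L929IRF8, so the probes differ in sign in L929IRF8.

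Rps20, a protein of the head of the small subunit, had the highest change of the genes above background in L929. L929 gave 26298 and 23923 without IFNβ and 31062 and 28298 with it, while L929IRF8 gave 28957 and 29568 without and 29568 and 28753 with it. The untreated L929 arrays were the lowest, and the other 6 lay between 28298 and 31062. The change was 0.24 ± 0.07 in L929 (adjusted p = 0.318) and -0.01 ± 0.07 in L929IRF8 (adjusted p = 1). Rps16 did not pass in L929, with 20075 ± 281 untreated and 17385 ± 459 after IFNβ (SD, n = 2 each; 1.15-fold lower, limma adjusted p = 0.384). Rps15 read 9729 and 8989.5 in untreated L929IRF8 and 8144 and 8564 after IFNβ, with no overlap (-0.16 ± 0.08, adjusted p = 0.651). Rps25 was higher after IFNβ by 0.14 ± 0.14 in L929, where arrays overlapped, and by 0.16 ± 0.14 in L929IRF8, where they did not (adjusted p = 0.882 and 0.827).

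Among large-subunit genes, Rpl22, which in mice is needed for T cell development but not for the ribosome's basic work, had the lowest changes in both lines. It read 450.1 and 357.8 in untreated L929 and 332.2 and 235.1 after IFNβ, and 455.6 and 286.3 in untreated L929IRF8 and 398.5 and 213.3 after IFNβ. Replicate 2 was below replicate 1 in each of the 4 groups, by a median ratio of 0.668, and the IFNβ value was below the untreated value within each replicate number of each line. The change was -0.50 ± 0.40 in L929 (adjusted p = 0.816) and -0.29 ± 0.40 in L929IRF8 (adjusted p = 0.943). Its relative Rpl22l1, which can take its place in the ribosome, read 539.5 and 603.3 in untreated L929 and 333.2 and 632 after IFNβ (change -0.30 ± 0.36, adjusted p = 0.936). In L929IRF8 it read 335.6 and 501.8 untreated and 428.2 and 537.9 after IFNβ (change 0.22 ± 0.36, adjusted p = 0.991). Its arrays overlapped in both lines, and the sign differed between them.

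Rpl37a, a zinc-binding protein of the large subunit, read 20274 and 19150.5 in untreated L929 and 15276 and 17330 after IFNβ, against 13793.5 and 17060 in untreated L929IRF8 and 15031 and 16709.5 after IFNβ. As for Rps24, the untreated L929 arrays stood above the other 6. The change with IFNβ was -0.28 ± 0.13 in L929 (adjusted p = 0.662) and 0.05 ± 0.13 in L929IRF8 (adjusted p = 1). Rpl9 had 29489 ± 1264 untreated and 26121 ± 1075 after IFNβ in L929 (SD, n = 2 each; 1.13-fold lower, limma adjusted p = 0.38). Rpl21, a dim gene, was lower by 0.31 ± 0.21 in L929 and 0.23 ± 0.21 in L929IRF8 on the log2 scale, and its second probe was lower too (adjusted p of the first probe 0.798 and 0.846).

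**Figure D3:**
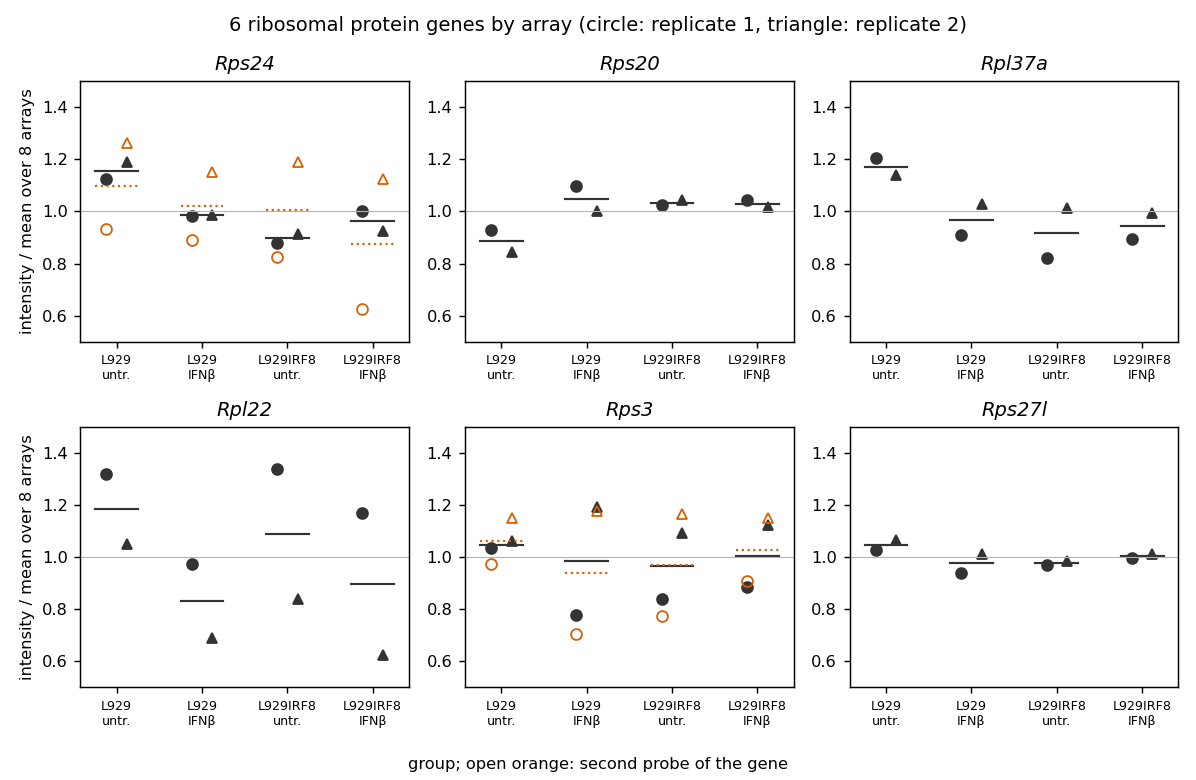
Intensity on each array divided by the probe's mean over the 8 arrays, for 6 ribosomal protein genes in the 4 groups. Circles are replicate 1, triangles replicate 2, lines the group means, and open orange symbols a second probe. For Rps24, Rps20 and Rpl37a the untreated L929 arrays stand apart in the brighter probe, and for Rpl22 replicate 2 lies below replicate 1 in each of the 4 groups.

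Genes with known duties beside or at the active sites of the ribosome are given next, and 0 of them passed in limma (0 with an unadjusted p under 0.05). Over all genes 10.8% in L929 and 10.5% in L929IRF8 had such a p after IFNβ, so 0 among so few genes says little. Rpl13a, which in human myeloid cells leaves the ribosome after interferon gamma to silence inflammatory messenger RNAs, read 1988 and 2271 in untreated L929 and 1853 and 2248 after IFNβ. In L929IRF8 it read 2143 and 2369 untreated and 1872 and 2213.5 after IFNβ. Replicate 2 was above replicate 1 in all 4 groups, and the arrays of the treatments overlapped. Within a replicate number the IFNβ value was the lower in each case, by a log2 change of -0.10 and -0.01 in L929 and of -0.19 and -0.10 in L929IRF8. The change was -0.06 ± 0.14 in L929 and -0.15 ± 0.14 in L929IRF8 (limma adjusted p = 1 and 0.864). Rpl5, which with the 5S RNA can bind the p53 regulator Mdm2, read 17983 ± 225 untreated and 18027 ± 286 after IFNβ in L929, and 17779 ± 636 and 19676 ± 2048 in L929IRF8 (SD, n = 2 each). Its change in L929IRF8 was 0.14 ± 0.08 (adjusted p = 0.75), and the arrays overlapped.

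Rps6, the substrate of the S6 kinases, had changes of -0.04 ± 0.08 in both lines, with 95% intervals from -0.25 to 0.18 in L929 and from -0.26 to 0.18 in L929IRF8. Rpl3, which shapes the peptidyl transferase centre, changed by 0.04 ± 0.07 and -0.01 ± 0.07. Rps19, the gene most often mutated in the human disorder Diamond-Blackfan anaemia, read 23923 and 22773 in untreated L929 and 20660 and 21866.5 after IFNβ (change -0.14 ± 0.05, adjusted p = 0.533), and its L929IRF8 groups overlapped (change 0.00 ± 0.05). Of the stalk genes, Rplp1 changed by 0.02 ± 0.06 and 0.03 ± 0.06, and Rplp0 by -0.17 ± 0.11 and -0.11 ± 0.11 (adjusted p = 0.798 and 0.864).

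Rps27 and its relative Rps27l, whose gene is a p53 target, were compared side by side. Rps27 read 22479 and 22085.5 in untreated L929 and 23514 and 23002 after IFNβ, with no overlap (change 0.06 ± 0.05, limma adjusted p = 0.846). In L929IRF8 it read 23923 and 22479 untreated and 24552 and 22626.5 after IFNβ, where the arrays overlapped (change 0.02 ± 0.05). Rps27l read 13793.5 and 14270 in untreated L929 and 12583 and 13570.5 after IFNβ, and 12982.5 and 13177 in untreated L929IRF8 and 13366 and 13570.5 after IFNβ. IFNβ arrays lay below the untreated arrays in L929 and above them in L929IRF8. The changes were -0.10 ± 0.05 and 0.04 ± 0.05 (adjusted p = 0.6 and 0.882).

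The genes sorted by their start-site sequence were as follows. The 6 genes above background with the response element word in their window changed by -0.14 to 0.08 in L929 (median -0.04). In L929IRF8 they changed by -0.12 to 0.14 (median -0.03). In limma 0 passed (smallest adjusted p = 0.533 and 0.75), and 0 had an unadjusted p under 0.05. Over all genes above background 16.3% and 16% had such a p, so 0 of 6 says little. The 9 genes above background with a C and pyrimidines at the annotated start changed by -0.12 to 0.10 in L929 (median 0.01) and by -0.13 to 0.02 in L929IRF8 (median -0.03).

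Without IFNβ, the lines were compared next. 0 ribosomal protein genes passed in limma as higher or lower in L929IRF8, where 0.00389% and 0.0117% of all probes did. Unadjusted p was under 0.05 for 4 genes, Rps24, Rps20, Rpl4 and Rpl37a (6.67%, against 5.91% of all genes), and the smallest adjusted p was 0.343. The median difference over the 60 genes was -0.01, beside 0.00 over all genes. Arrays of L929IRF8 lay wholly above those of L929 for 8 of the 53 genes above background and wholly below for 8 (15.1% each), close to the 15.6% and 14% of all genes. Rps24 was 1.29-fold lower in L929IRF8 (log2 -0.37 ± 0.05, adjusted p = 0.343, 95% interval -0.51 to -0.23), with -0.36 under replicate 1 and -0.38 under replicate 2. The second Rps24 probe differed by -0.13. Rpl37a was 1.28-fold lower (-0.36 ± 0.13, adjusted p = 0.875), and Rps20 1.17-fold higher (0.22 ± 0.07, adjusted p = 0.774). Rps15a, a dim gene, was higher by 0.21 ± 0.21 and Rpl29 by 0.20 ± 0.15 (log2, adjusted p = 1 and 0.967), both without overlap. These differences share the untreated L929 arrays with the IFNβ changes of L929 given above.

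After IFNβ the lines were compared again. 0 passed in limma in either direction, where 0% and 0.00389% of all probes did, and 1 gene, Rpl4, had an unadjusted p under 0.05 (1.67%, against 5.26% of all genes). All 53 genes above background differed by less than 0.25, beside 82.5% of all genes above background. The arrays of L929IRF8 lay wholly above for 3 and wholly below for 5 (5.66% and 9.43%, against 11.9% and 13.2% of all genes). Rpl4, which lines the peptide exit tunnel, was at 1562 and 1635 after IFNβ in L929, against 1476.5 and 1422 for L929IRF8 (-0.14 ± 0.05, adjusted p = 0.954). Without IFNβ it was at 1664 and 1677 against 1462 and 1577.5 (-0.14 ± 0.05, adjusted p = 0.872). The L929IRF8 arrays lay below those of L929 both with and without IFNβ. Rpl7a was lower by 0.21 ± 0.28, Rps2 by 0.20 ± 0.11 and Rps15 by 0.17 ± 0.08 (log2), while Rps19 was higher by 0.14 ± 0.05 and Rpl41 by 0.14 ± 0.14, each with an adjusted p of 1. The second Rps19 probe differed by -0.05, so the probes of Rps19 differ in sign here. The median over the 60 genes was -0.02, and it was 0.04 and -0.08 without replicate 1 or 2 of the IFNβ-treated L929IRF8, and -0.06 and 0.02 without replicate 1 or 2 of the IFNβ-treated L929.

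In the interaction 0 ribosomal protein genes passed in limma, where 0% of all probes were called higher and 0.00389% lower, and 1, Rps24, had an unadjusted p under 0.05 (1.67%, against 4.83% of all genes). The difference between the lines' IFNβ changes was 0.33 ± 0.07 for Rps24 (adjusted p = 0.631, 95% interval 0.13 to 0.53), 0.32 ± 0.19 for Rpl37a, -0.25 ± 0.10 for Rps20 and -0.23 ± 0.30 for Rps15a (adjusted p = 1 each). For the second Rps24 probe it was -0.14. The median over the 60 genes was 0.01. Of the 53 genes above background, 48 had a 95% interval within 2-fold (90.6%, against 63.6% of all genes above background).

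The spread between arrays of 1 group was smaller than over all genes, and nearer that of the mitochondrial ribosomal protein genes. The median SD of log2 values within groups was 0.0893 for the 53 genes above background, 0.113 for 69 mitochondrial ribosomal protein genes and 0.186 for all genes above background. The median range over the 8 arrays was 0.28, 0.36 and 0.60 in the same order. The narrowest ranges, each 1.11-fold from lowest to highest array, were those of Rps14, a small-subunit protein, Rps27 and Rpl3. Rpl38, needed for the translation of certain Hox messenger RNAs in mice, had the same rounded ratio, as did Rplp1. The widest were those of Rpl22 (2.14-fold), Rpl21 (1.82-fold) and Rpl7a (1.70-fold). 36 of the 53 genes had means over 10000, and the part of signal strength in the narrow ranges was not tested.

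**Figure D4:**
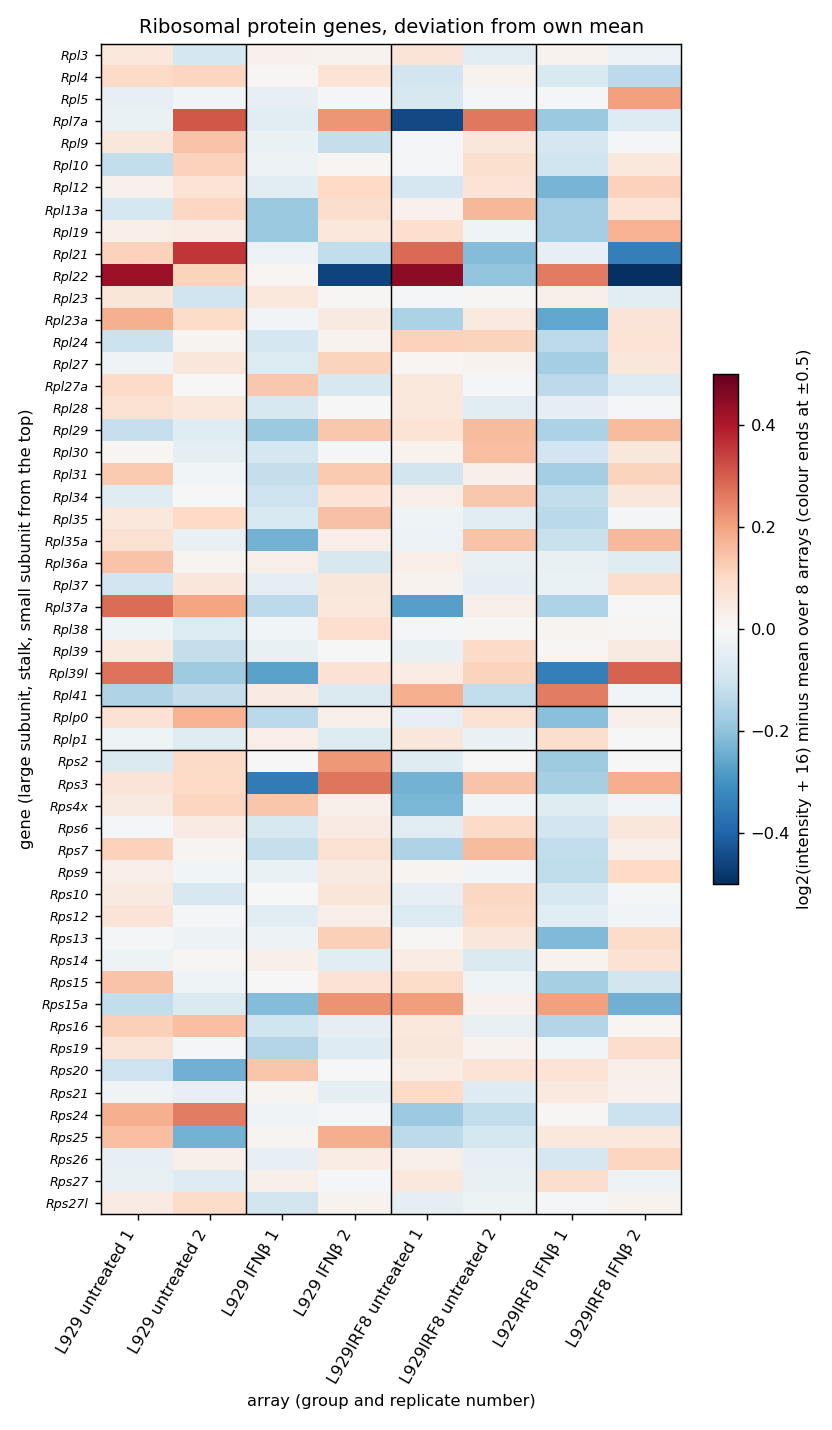
Deviation of log2(intensity + 16) from each gene's mean over the 8 arrays, for the 53 ribosomal protein genes above background (rows, by subunit) on the 8 arrays (columns, by group and replicate). Colours run from -0.5 (blue) to 0.5 (red) and deviations beyond that are drawn at the ends; most cells are pale, Rpl22, Rpl7a and Rpl21 have the strongest colours, and on IFNβ replicate 1 the cells of 38 genes in L929 and 39 in L929IRF8 are below 0.

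The replicate number moved with several genes. Replicate 2 exceeded replicate 1 in all 4 groups for 13 of the 53 genes (24.5%) and lay below it for 6 (11.3%), where 20.7% and 19.1% of all genes above background did. Rps3, which also takes part in DNA repair, read 11283, 8463, 9151 and 9630 on the replicate 1 arrays of untreated and IFNβ-treated L929 and L929IRF8, in that order. Its replicate 2 arrays read 11563, 12982.5, 11924 and 12249. Its second probe was likewise higher on replicate 2 in all 4 groups, with 3192 against 5323.5 in L929 after IFNβ. Rpl7a read 4674 and 5930 in untreated L929 and 3489 and 5740 in untreated L929IRF8, and the replicate 2 value was a median 1.24 times that of replicate 1. Within replicate 1 the median IFNβ change of the 53 genes was -0.09 in L929 and -0.07 in L929IRF8, and within replicate 2 it was 0.02 and 0.00. Over all genes above background the medians were -0.08 and -0.092 within replicate 1, and -0.065 and -0.063 within replicate 2.

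Of the 10 ribosomal protein genes with several probes above background, the probes differed in the sign of the change for 3 genes after IFNβ in L929 and 5 in L929IRF8. The changes of the probes that differed in sign ran from -0.23 (Rps24) to 0.29 (Rpl27a), both in L929IRF8. The Rpl27a value is that of a dim second probe, with a mean of 24.0, barely over the bound. It read from 12.4 to 35.3 over the arrays and lay under the bound on some, so the place of Rpl27a among the 5 says little. Ribosomal protein genes have many processed pseudogenes of near-identical sequence, so a probe may also read these or related genes, and the values are those of the probe.

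Other genes of translation were described by the same counts. Of 69 mitochondrial ribosomal protein genes above background, 0 rose and 1 fell in L929 after IFNβ: Mrps30 read 3230 and 3217 untreated and 2670 and 2710 after IFNβ (log2 -0.26 ± 0.03, limma adjusted p = 0.0343). In L929IRF8 0 passed (4 had an unadjusted p under 0.05), and the medians were -0.03 and -0.07 in the lines. Of 33 translation factors 0 passed in either line (6 and 7 with an unadjusted p under 0.05), with medians of -0.09 and -0.10. Of 52 ribosome biogenesis genes 0 passed in either line (13 and 6 with an unadjusted p under 0.05, or 25% and 11.5%), with medians of -0.16 and -0.06, and 43 and 39 of them (82.7% and 75%) had a negative change. Over all genes above background the medians were -0.08 in each line, 63.8% and 65% of the changes were negative, and 16.3% and 16% had an unadjusted p under 0.05.

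Among 17 growth and initiation control genes above background, 2 rose in L929 and 1 in L929IRF8. Eif2ak2, which encodes the kinase PKR that blocks initiation, read 615.6 and 588.4 in untreated L929 and 6039.5 and 5557 after IFNβ (log2 change 3.23 ± 0.08, limma adjusted p = 0.000763), and it rose by 3.13 ± 0.08 in L929IRF8 (adjusted p = 0.000895). Max, the partner of Myc, rose by 0.45 ± 0.06 in L929 (adjusted p = 0.0463), from 1060 and 1110.5 to 1425.5 and 1562. In L929IRF8 it did not pass, but its arrays were higher after IFNβ there too. They read 1174 and 1182 untreated and 1589 and 1529 after IFNβ, with no overlap. Of 10 p53 and nucleolar stress genes above background 0 passed in either line (0 and 1 with an unadjusted p under 0.05 in limma), with medians of -0.30 and -0.15. The median SE of their changes was 0.30, and 4 and 3 of the 10 had a 95% interval within 2-fold. The median over all genes above background was -0.08 in each line, and 77.7% and 76.7% of them had such an interval. Fau, which encodes a ubiquitin-like protein fused to a small-subunit protein, changed by 0.06 ± 0.04 and -0.04 ± 0.04. Of the related genes that the naming rule leaves out, Rpl7l1 changed by 0.05 ± 0.11 and -0.28 ± 0.11. Its arrays did not overlap in L929IRF8 (limma adjusted p = 0.509). Rpl36al changed by -0.10 ± 0.04 and -0.09 ± 0.04, without overlap in either line (limma adjusted p = 0.633 and 0.702).

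**Figure D5:**
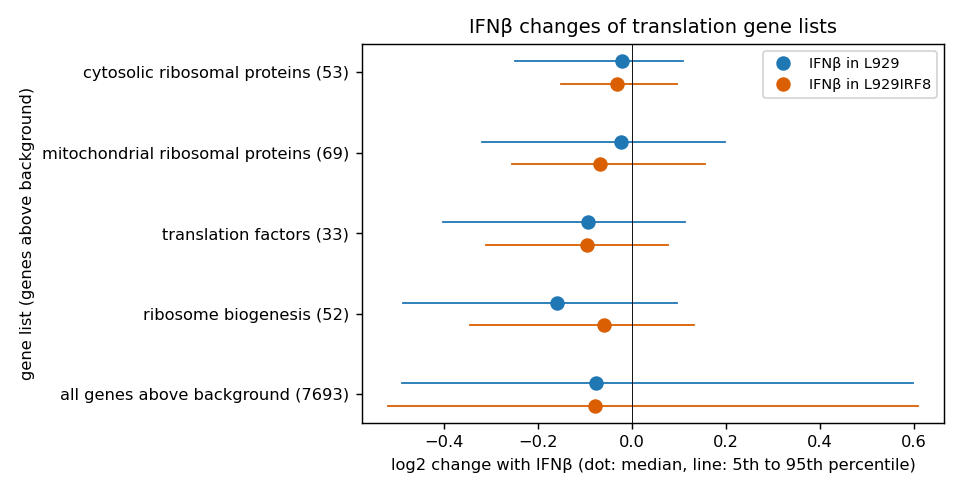
Median (dot) and 5th to 95th percentile (line) of the log2 change with IFNβ in L929 (blue) and L929IRF8 (orange) for 4 translation gene lists and for all 7693 genes above background. The 53 cytosolic ribosomal protein genes have the shortest lines, with medians of -0.02 and -0.03, and the 52 ribosome biogenesis genes the lowest median, -0.16 in L929.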

How the data were processed

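RNA of 8 samples was measured on Illumina mouse bead arrays. The authors deposited linear intensity values for 25697 probes, 28.1% to 28.3% of them below 0 on an array and with sorted values that differ by at most 1.7 units between arrays. The authors' values were thus already background-subtracted and quantile normalized, judged from the values, and the tools are not given in the sources used here. They were not normalized again. Tests ran on log2(intensity + 16), with negative values taken as 0, which understates changes of dim genes. limma 3.58.1 (lmFit, eBayes, R 4.3.3) was fitted to all probes and all 8 arrays with 1 mean for each of the 4 groups and no block; 4 residual degrees of freedom, 0.684 from the prior. P-values were adjusted by Benjamini-Hochberg over all probes (0.05). The script was checked on simulated data. 2 arrays against 2 cannot give an exact permutation p under 0.333. The labels number the replicates but do not say that they are separate cultures, so p-values measure the spread between these samples, which may be technical. The number of arrays limits the precision.

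Of the probes, 23978 have 1 gene symbol, 0 several and 1719 none. Genes named by rule were any that passed, the 3 largest rises and falls of each comparison, the 3 widest and narrowest ranges, and a list of genes with known further roles, of which Rpl11 and Rps27a were not analysed here. Largest rises and falls at background are named only as such; Rps16, Rpl9 and Rpl4, and the genes sorted by sequence, were taken after values were seen, as were the start-site features. The genes and lists were chosen with earlier results of these data known. Alternatives covered the added constant, background filter, prior, scaling, probes per gene, replicate block and leaving out arrays.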

Additional observations from a re-analysis of the deposited data

Results flagged for a closer look

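For 2 ribosomal protein genes the arrays moved in opposite directions in the lines, with IFNβ values wholly below the untreated values in L929 and wholly above them in L929IRF8. Of all genes above background, 29% lay wholly below in L929 and 12.4% wholly above in L929IRF8. The share of all genes that did both was not counted, so the 2 genes have no such measure beside them. For Rps24 the change in L929IRF8 minus that in L929 was 0.332 on the log2 scale, and for Rps27l it was 0.145. The interaction was tested in limma and neither passed (adjusted p = 0.631 and 1). In Rps24 the second probe gave -0.14 for the same difference.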

How the results depend on the processing

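No ribosomal protein gene passed in any comparison under the other constants (4 and 64), the background filter, an intensity trend, median centring, renewed quantile normalization without the 478 interferon-responsive probes, all probes of a gene or the replicate block. With single arrays left out the count was 0 to 1 for IFNβ in L929IRF8 and for the untreated lines: Rps23, at background, passed without L929IRF8 untreated replicate 2 (-0.29, adjusted p = 0.0258, and 0.29, adjusted p = 0.0383). A left-out array leaves a lone array assumed to vary like the other groups. Medians over the 60 genes then ran from -0.092 to 0.022 (IFNβ in L929), -0.094 to 0.017 (in L929IRF8), -0.030 to -0.008 (untreated lines), -0.075 to 0.042 (lines after IFNβ) and -0.047 to 0.045 (interaction). Renewed quantile normalization gave IFNβ medians of 0.013 in L929 and -0.015 in L929IRF8 over the ribosomal protein genes above background. Over the 7413 genes above background that it kept, the medians were -0.011 and -0.025. In L929 the ribosomal protein median was then no nearer 0 than that of all genes. It put 7 rather than 4 ribosomal protein genes wholly above in L929. The share of all genes wholly above under this scaling is not given here, so the 7 have no such measure beside them.

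Counts over all probes were 328, 276, 4, 1 and 1 in the order IFNβ in L929, in L929IRF8, untreated lines, lines after IFNβ and interaction. With single arrays left out they ran from 217 to 469, 135 to 526, 0 to 264, 0 to 266 and 0 to 142. The last 3 comparisons gave 21, 23 and 16 with a constant of 4, 19, 19 and 11 with an intensity trend, and 0 each with the background filter and with the replicate block. A constant of 64 gave 0 for the untreated lines. Without the responsive probes the counts were 8 and 1 for IFNβ, by construction, and 0 for the lines after IFNβ and the interaction.

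The labels do not say that a replicate number marks a shared batch. Deviations of same-numbered arrays from their group means correlated at 0.441 to 0.523 over the 6 pairs of groups, a hint from the data. The replicate block gave 0 ribosomal protein genes in each comparison, with a smallest adjusted p of 0.218 (Rps20, IFNβ in L929) and of 0.31 in L929IRF8 (Rpl13a, 0.864 without the block). With it 8, 1, 4, 1 and 3 of the 53 genes above background had an unadjusted limma p under 0.05 in the order above. Without it the counts were 4, 0, 4, 1 and 1 (7.55%, 0%, 7.55%, 1.89% and 1.89%). Over all genes above background the shares without it were 16.3%, 16%, 6.38%, 5.12% and 3.93%. Their shares with the block were not counted, so the counts with it have no such measure beside them. The cause of these shifts was not tested. Probes near background and near the top of the scale limit what can be seen.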
